A study of Homo sapiens with 8 samples.

Results

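The gained HoxC5 promoter sites shared with Pbx4 are stretches of DNA near gene starts where HoxC5 ChIP-Seq gave a peak once HoxC5 was overexpressed, where neither library of endogenous HoxC5 had a peak, and where Pbx4 ChIP-Seq gave an overlapping peak. They were chosen by 4 measured conditions: a peak in the overexpressed HoxC5 library on chromosomes 1 to 22 or X, no overlap with a peak of either endogenous HoxC5 library, at least 1 bp of overlap with a Pbx4 peak, and a summit (the position of highest signal in a peak) within 1 kb of the transcription start site (TSS) of a protein-coding transcript. Of the 67196 peaks of overexpressed HoxC5, 4965 met all 4 conditions (7.39%). All libraries were made in PC-3, an established prostate cancer cell line. HoxC5 was immunoprecipitated from unmodified control cells in 2 libraries and from cells of Hoxc5 overexpression genotype in 1 library, and Pbx4 from cells of Pbx4 overexpression genotype in 1 library. According to the study's methods the overexpressed proteins were Flag-tagged and delivered by lentivirus, and the antibodies were raised against HoxC5 and PBX4 themselves. The HoxC5 and Pbx4 peaks thus come from different cells, each with 1 of the proteins in excess, and an overlap of their peaks is a shared position and not a measure of both proteins on the same DNA molecule. With 1 library for each overexpressed protein, no difference between conditions has a replicate check, and every interval and test below covers counting error over peaks only.

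Hox proteins are homeodomain transcription factors that pattern the body axis, and each alone binds short AT-rich words with little selectivity. Pbx proteins belong to the TALE class of homeodomain factors, together with the Meis and Pknox proteins. A Hox protein and a Pbx protein can bind side by side on a composite word in which TGAT is followed, after a pair of free bases, by AT, whereas a Pbx protein paired with Meis or Pknox binds TGATTGAC followed by AG. Promoters of widely expressed genes tend to be rich in G, C and CpG and carry words for general promoter factors such as SP/KLF, NF-Y and ETS proteins, while the AP-1 word, bound by FOS and JUN dimers, is known above all from enhancers.

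The sequences at the summits show the kinds of site in the set. Each window is a summit with 50 bases either side, plus strand of GRCh37 (hg19), lower case except for the searched words, which are in capitals whichever strand they lie on. Only TGATTGAT, TGATTAAT and TGATTTAT were searched as Hox-Pbx words. Other pairs of free bases stay in lower case, as in the CHD1 and SP2 windows. The highest HoxC5 enrichment in the set lay in an intron of RBPJ, the DNA-binding effector of Notch signalling, and the next upstream of CHD1, a chromatin remodeller, which holds the Meis word. PDCL, a chaperone of G protein subunits, holds an AP-1 and a Meis word.
RBPJ, chr4:26344129-26344229: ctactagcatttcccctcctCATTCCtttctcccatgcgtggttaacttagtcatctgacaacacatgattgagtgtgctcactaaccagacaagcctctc
CHD1, chr5:98265372-98265472: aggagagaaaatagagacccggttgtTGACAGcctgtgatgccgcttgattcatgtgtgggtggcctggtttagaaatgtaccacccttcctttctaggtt
PDCL, chr9:125589512-125589612: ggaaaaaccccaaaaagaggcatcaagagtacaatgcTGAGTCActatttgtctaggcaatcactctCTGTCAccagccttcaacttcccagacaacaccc

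The next windows show composite homeodomain words at HoxC5 summits. VEPH1 holds the Hox-Pbx word TGATTGAT, and ZNF503 holds both TGATTGAT and TGATTTAT. TOM1 and ZC3H6 hold TGATTGAC, the leading part of the Pbx-Meis word. LTBP1, which anchors latent TGF-beta in the matrix, has its summit in a coding exon with 2 AP-1 words, a Meis word and an ETS word.
VEPH1, chr3:157218200-157218300: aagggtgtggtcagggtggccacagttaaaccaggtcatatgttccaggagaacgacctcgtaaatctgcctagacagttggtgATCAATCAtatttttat
ZNF503, chr10:77162316-77162416: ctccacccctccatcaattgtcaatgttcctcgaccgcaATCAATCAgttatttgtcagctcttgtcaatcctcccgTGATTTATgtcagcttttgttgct
TOM1, chr22:35696130-35696230: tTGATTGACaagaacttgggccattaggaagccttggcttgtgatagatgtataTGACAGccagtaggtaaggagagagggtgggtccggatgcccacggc
ZC3H6, chr2:113033028-113033128: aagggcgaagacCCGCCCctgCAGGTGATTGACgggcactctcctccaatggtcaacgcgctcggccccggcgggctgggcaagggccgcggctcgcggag
LTBP1, chr2:33500931-33501031: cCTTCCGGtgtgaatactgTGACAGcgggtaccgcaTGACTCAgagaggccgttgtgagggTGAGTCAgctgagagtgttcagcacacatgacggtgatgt

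General promoter words at HoxC5 summits are shown by SP2 and MRPL18. SP2, itself a member of the SP family, holds the NF-Y word, and MRPL18, a mitochondrial ribosomal protein, holds the NF-Y and the ETS word. The remaining windows are centred on the Pbx4 summit of sites with a high Pbx4 enrichment. HIBADH, an enzyme of valine breakdown, and ACOT8, a peroxisomal thioesterase, each hold a Meis and an NF-Y word there, and GHR, the growth hormone receptor, holds an AP-1 word.
SP2, chr17:45973181-45973281: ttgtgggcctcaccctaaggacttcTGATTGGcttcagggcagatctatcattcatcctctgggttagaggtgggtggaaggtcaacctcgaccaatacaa
MRPL18, chr6:160211391-160211491: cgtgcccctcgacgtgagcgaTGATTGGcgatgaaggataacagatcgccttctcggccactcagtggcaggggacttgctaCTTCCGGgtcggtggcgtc
ACOT8, Pbx4 summit, chr20:44486090-44486190: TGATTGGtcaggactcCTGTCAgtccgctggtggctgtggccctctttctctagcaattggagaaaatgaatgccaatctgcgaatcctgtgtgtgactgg
HIBADH, Pbx4 summit, chr7:27702564-27702664: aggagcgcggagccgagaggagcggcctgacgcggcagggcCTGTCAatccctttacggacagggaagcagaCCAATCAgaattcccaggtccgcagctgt
GHR, Pbx4 summit, chr5:42547406-42547506: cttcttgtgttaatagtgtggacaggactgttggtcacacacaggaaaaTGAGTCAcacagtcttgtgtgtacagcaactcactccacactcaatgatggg

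The peak lists differ widely in length, which bears on every count. The overexpressed HoxC5 list held 67196 peaks, all with a q-value of at most 0.00997, and the Pbx4 list held 153620 peaks with q-values up to 0.0490. The 2 endogenous HoxC5 lists held 2525 and 170 peaks with q-values up to 0.0398 and 0.0499. The count of sites rested little on the endogenous lists, since 13356 of the 13821 promoter peaks of overexpressed HoxC5 overlapped no endogenous peak. Only 76 of the 4965 sites (1.53%) lay within 1 kb of an endogenous peak, and 4 lay within 100 bp. The word gained therefore means listed after overexpression and in neither endogenous list, and how far the length of those lists sets this was not tested.

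Promoters were the places where a gained HoxC5 peak met a Pbx4 peak least often. A Pbx4 peak lay over 37.2% of the gained promoter peaks (36.4 to 38.0%, a 95% Clopper-Pearson interval as for all shares below) and over 75.02% (74.6 to 75.4%) of the 51861 gained peaks farther than 1 kb from a protein-coding TSS. Of the 465 promoter peaks that also had an endogenous HoxC5 peak, 47.3% (42.7 to 52.0%) overlapped a Pbx4 peak. These shares are fixed by the rule and carry no test. Within the gained promoter peaks the share rose with distance from the start, from 32.1% within 50 bp of the TSS to 50.04% at 700 to 1000 bp. It also rose with peak width, from 26.2% in the narrowest quintile to 54.9% in the widest, and a wide peak has more bases to overlap. By HoxC5 fold enrichment it was 30.2% in the lowest quintile and 54.9% in the highest. With the Pbx4 list cut to its lowest q-values, as many peaks as the HoxC5 list holds, 2100 sites remained, or 15.7% of gained promoter peaks. With a Pbx4 fold enrichment of at least 5, 3005 sites (22.5%) remained.

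At the sites themselves the HoxC5 peaks had a median fold enrichment over the local background of 6.14, with quartiles of 4.80 and 8.05 and a range of 2.22 to 46.7. The overlapping Pbx4 peaks had a median fold enrichment of 5.67, with quartiles of 4.24 and 8.08 and a range of 2.04 to 44.4. Gained promoter peaks without Pbx4 were lower and narrower, with a median HoxC5 fold enrichment of 5.36 and a median width of 247 bp, against 6.14 and 320 bp at the shared sites. Height in 1 list said little about height in the other. Over the 4965 sites the HoxC5 and Pbx4 fold enrichments had a Spearman rho of 0.0904, and Pearson's r of their log2 values was 0.113. These are descriptions across peaks of 1 library each, which share mappability and copy number. Of the 993 sites in the top quintile by HoxC5 enrichment, 264 (26.6%) were also in the top quintile by Pbx4 enrichment.

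The sites of highest enrichment in the separate lists were different genes. By HoxC5 fold enrichment the leading 10 included RBPJ (46.7), CHD1 (44.3), ING3 (39.999), PRR13 (37.6), MPP4 (33.3), PPP3CA (33.0), DCAF11 (33.0), EXT1 (31.4) and PDCL (28.0). Some of these encode chromatin or transcription proteins: RBPJ and CHD1 are described above, and ING3 is a histone-mark reader of an acetyltransferase complex. Their Pbx4 fold enrichments ran from 5.05 at EXT1, which makes heparan sulfate, to 12.6 at PPP3CA, a subunit of the phosphatase calcineurin. By Pbx4 fold enrichment the highest was PKNOX1 (44.4), a TALE factor that pairs with Pbx proteins, at a HoxC5 fold enrichment of 10.5. Next came DNM2, a dynamin of endocytosis, with 31.4 for Pbx4 and 5.80 for HoxC5. MYL11, a muscle myosin light chain, was high in both lists, with 29.99 for Pbx4 and 27.5 for HoxC5. The other places in the leading 10 by Pbx4 were ACOT8 (29.1), HIBADH (28.4), GHR (28.3), CYTH2 (27.0), 2 sites at TK2 that share a Pbx4 peak (26.9) and ACTR3C (26.7). No site was in both groups of 10.

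**Figure D1:**
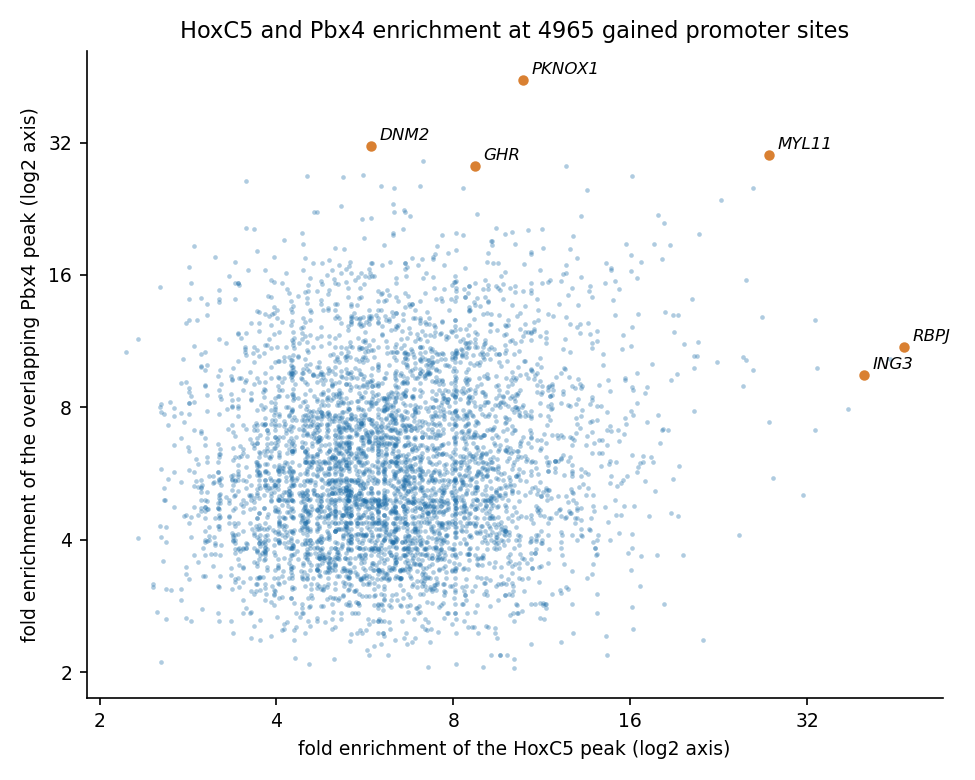
HoxC5 fold enrichment (x axis) against the fold enrichment of the overlapping Pbx4 peak (y axis), both log2 axes, 1 point per site for 4965 sites, with some sites of high enrichment named in orange. The cloud has no slope to speak of (Spearman rho 0.0904), PKNOX1 stands highest for Pbx4 at 44.4 and RBPJ farthest right for HoxC5 at 46.7.

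The HoxC5 summits of the shared sites lay farther from the start than those without Pbx4. The median distance was 150 bp, against 102 bp at gained promoter peaks without Pbx4, and 40.5% against 49.6% lay within 100 bp. At the far end 27.0% of the shared sites lay beyond 400 bp, against 19.8%. Most were upstream: 65.2% (63.9 to 66.6%) of the shared sites and 60.1% of the peaks without Pbx4. At the same sites the Pbx4 summit was farther than the HoxC5 summit from the TSS nearest the latter in 64.4%. Its median distance was 217 bp, and it lay within 1 kb in 97.0%. That TSS was chosen by the HoxC5 summit, which had to lie within 1 kb, so the measure favours a farther Pbx4 summit. The required overlap of the peaks also keeps most Pbx4 summits near. Whether Pbx4 lay farther out was not tested.

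The HoxC5 and Pbx4 summits were a median of 74 bp apart (quartiles 31 and 157 bp), with 38.3% within 50 bp and 10.7% over 300 bp apart. At the gained shared peaks away from promoters they were closer, with a median of 48 bp and 51.8% within 50 bp. The chromatin was sheared to fragments longer than these distances, so a summit does not place a protein to the base. The Pbx4 peak of highest enrichment covered the HoxC5 summit at 4083 sites (82.2%), and the median overlap was 215 bp. The sites used 4783 distinct Pbx4 peaks, and 363 sites shared theirs with another site.

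Under the summit the annotation held an intron at 38.5% of the sites, a stretch outside protein-coding genes at 37.1%, a UTR at 21.5% and a coding exon at 2.86% (2.41 to 3.36%). At gained promoter peaks without Pbx4 coding exons were more common, at 6.42% (5.91 to 6.97%), and introns less, at 31.2%. Divergent promoters, here a protein-coding TSS on each strand within 1 kb of the summit, were rarer among the shared sites. They made up 470 of the 4965 sites (9.47%, 8.67 to 10.3%) and 1044 of the 8391 peaks without Pbx4 (12.4%, 11.7 to 13.2%). The difference was -2.98 percentage points (95% interval -4.04 to -1.88, two-sided Fisher's exact test p = 1.25e-07).

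The shared sites lay between the neighbouring classes of gained peak in median base composition, with overlapping ranges. The GC quartiles were 48.5 and 63.4% at the shared sites. They were 58.4 and 73.3% at promoter peaks without Pbx4, and 41.6 and 50.5% at shared peaks away from promoters. The median GC content of the summit windows was 55.4% at the shared sites, 66.3% at promoter peaks without Pbx4 and 45.5% at shared peaks away from promoters. The observed over expected CpG ratio over 501 bp had medians of 0.668, 0.809 and 0.184. Windows with over 70% GC made up 11.5% of the shared sites and 37.4% of the promoter peaks without Pbx4. Because of this, the words below are compared a second time within 1 class of GC content.

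A set of 21 words was searched on both strands of these windows, with each word scored as present or absent. Against the window 1 kb to the right of each summit, the AP-1 word TGACTCA gave the lowest p. It was in 506 of 4965 summit windows (10.2%, 9.36 to 11.1%) and in 1.39% of flanks (exact McNemar test, adjusted p = 1.04e-83), and in 1.24% of windows centred on all 78394 annotated protein-coding starts. In all, 15 words (71.4% of those tested) were more frequent at the summit than in the flank and 3 (14.3%) less. Words of general promoters were among the former. The GC box GGGCGG was in 20.1% against 8.56%, the ETS word CCGGAAG in 5.86% against 0.866%, the NF-Y word CCAATCA in 3.34% against 0.765%, and the CRE TGACGTCA, bound by ATF and CREB proteins, in 1.09% against 0.0403%. The flank is farther from the start than most summits, so general promoter words differ by position too. Against all start windows the GC box was lower at the shared sites (20.1% and 27.4%), ETS about level (5.86% and 6.23%), and NF-Y higher (3.34% and 1.52%).

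The composite homeodomain words searched were rare but denser at the summit. Other forms of the Hox-Pbx word were not searched, so the share of sites with any form is unknown. TGATTGAT was in 41 windows (0.826%, 0.593 to 1.12%) against 0.201% of flanks (exact McNemar, adjusted p = 2.81e-05), and TGATTGAC in 31 (0.624%, 0.425 to 0.885%) against 0.141% (adjusted p = 0.000174). TGATTAAT was in 0.544% against 0.262% (exact McNemar, adjusted p = 0.0449), a call that 8 of the 13 alternatives ended. TGATTTAT, in 0.504% against 0.342%, did not pass (exact test, adjusted p = 0.294). TGACAG, bound by Meis and held within the Pbx-Meis word, was in 7.75% against 5.36% (adjusted p = 3.93e-06, exact test), and in 5.46% of all start windows. The plain homeodomain word TAATTA was less frequent at the summit than in the flank, at 1.45% against 2.82% (exact McNemar, adjusted p = 6.57e-06), and TAATGA, at 5.02% against 4.87%, did not pass. Both stood above their shares in all start windows, which were 0.723% for TAATTA and 1.78% for TAATGA. The other words less frequent at the summit were TATAAA, at 2.78% against 6.99%, and CAGGTG, at 6.59% against 8.76%. Base composition of the flanks was not measured, so how far it sets these differences was not tested. Of the 31 matches to TGATTGAC, 10 were followed by AG, which completes the Pbx-Meis word. Any of the 7 Hox-TALE words was in 15.1% of the sites, and none of the 21 words in 41.0%.

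The position of a word relative to the summit differed between words. AP-1 matches numbered 4.75 and 4.61 per 100 sites in the pair of 40-bp bins next to the HoxC5 summit and 0.544 in the bin from -400 to -360 bp. ETS matches also crowded around the summit. The GC box was spread over the whole promoter, with 10.5 matches per 100 sites in the bin just left of the summit and 7.41 at -400 to -360 bp.

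**Figure D2:**
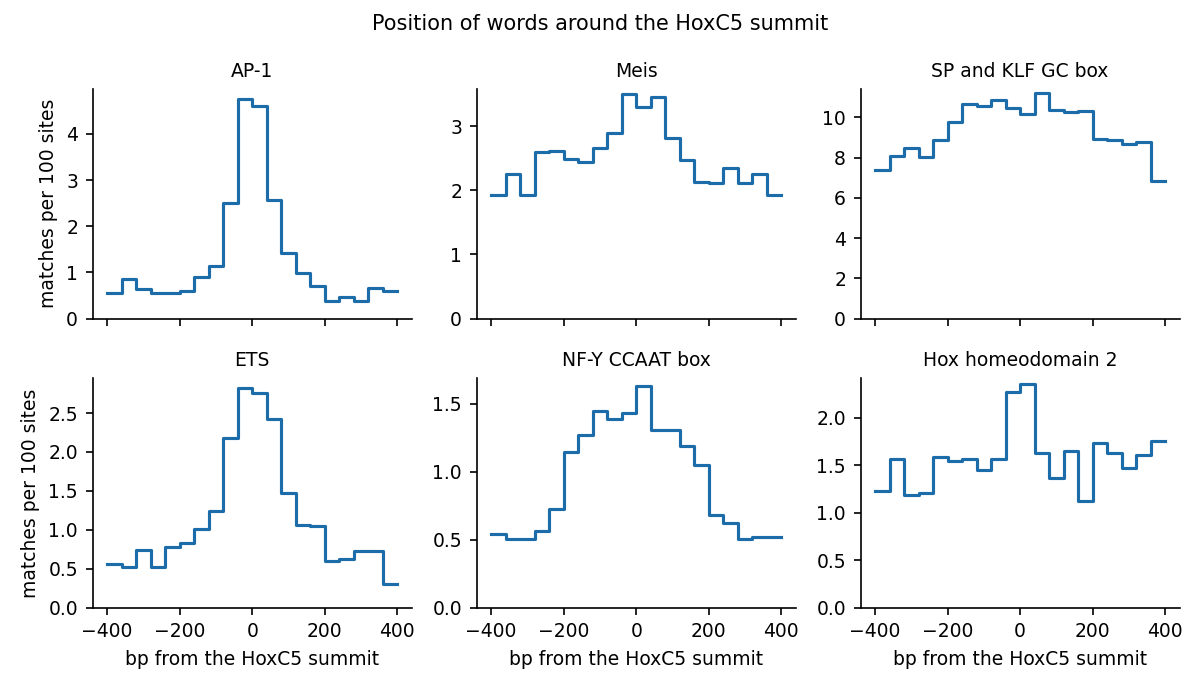
Matches per 100 sites (y axis) in 40-bp bins by distance from the HoxC5 summit (x axis, bp along the plus strand) for 6 words named by their factors, over 4965 sites. The y axes start at 0 and differ between panels, AP-1 reaches 4.75 beside the summit, and the GC box stays broad. Hox homeodomain 2 is TAATGA.

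Which words set the promoter sites with Pbx4 apart from those without? Of the 21 words, 12 (57.1%) were more frequent at the shared sites and 6 (28.6%) less. AP-1 differed most in the first direction, at 10.2% against 1.75%, a difference of 8.44 points (7.57 to 9.35, Fisher's exact test, adjusted p = 1.03e-101). The Meis word was in 7.75% against 3.69%, TEAD's GGAATG in 7.71% against 3.90%, and NF-Y in 3.34% against 2.07%. The plain homeodomain words were more frequent too, TAATGA at 5.02% against 2.16% (Fisher's exact test, adjusted p = 3.69e-18) and TAATTA at 1.45% against 0.870% (adjusted p = 0.00326). All 4 composite homeodomain words searched were also more frequent, among them TGATTGAC at 0.624% against 0.0953% and TGATTGAT at 0.826% against 0.179%. The GC box was less frequent, at 20.1% against 34.4%, a difference of -14.3 points (-15.8 to -12.8), as were ETS (5.86% against 8.34%), YY1's AAGATGGC (0.685% against 1.88%) and 3 others. The CRE did not pass (1.09% against 1.30%, interval of the difference -0.578 to 0.185 points).

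Most of these differences were not called once base composition was held within 1 class, which also left fewer sites. Among windows of 50 to 60% GC, 1667 shared sites and 1700 peaks without Pbx4, 4 words (19.0%) were more frequent at the shared sites and 1 (4.76%) less. The 4 were AP-1 at 10.9% against 2.24% (adjusted p = 1.47e-24), TEAD at 8.10% against 4.76% (adjusted p = 0.000819), Meis at 8.46% against 5.29% (adjusted p = 0.00153) and TGATTGAC at 0.960% against 0.235% (adjusted p = 0.0275), by Fisher's exact test. The YY1 word remained less frequent, at 0.660% against 2.18% (Fisher's exact test, adjusted p = 0.00145). The GC box stood at 14.2% against 13.5%, the reverse order of the whole set, and did not pass (Fisher's exact test, adjusted p = 0.803). ETS (adjusted p = 0.0537), NF-Y (0.0750) and TGATTGAT (0.566) did not pass this exact test either. The AP-1 difference was also called at 40 to 50% GC (17.2% against 2.93%) and at 60 to 70% (3.85% against 1.96%), and did not pass above 70% GC (1.40% against 0.925%). The GC classes were chosen after the data were seen.

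AP-1 was more frequent at the shared sites at every distance from the start. Within 50 bp of the TSS it was in 6.23% of shared sites and 1.31% of peaks without Pbx4 (adjusted p = 2.75e-15, Fisher's exact test over 77 word and class comparisons). At 700 to 1000 bp it was in 19.9% and 3.40%. The median GC content of the shared sites fell from 60.4% to 48.5% between those classes, so distance and composition moved together. The ETS word fell with distance in both classes. It went from 10.6% of shared sites within 50 bp to 1.29% at 700 to 1000 bp, and from 15.6% to 2.11% of peaks without Pbx4.

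The share of sites with a word differed between quintiles of Pbx4 enrichment. AP-1 was at the HoxC5 summit of 4.02% of the sites in the lowest quintile by Pbx4 fold enrichment and 19.6% in the highest, while ETS was in 9.05% and 2.92% and the GC box in 23.02% and 13.2%. By HoxC5 fold enrichment AP-1 was in 7.79% of the lowest quintile and 14.1% of the highest, the GC box in 20.3% and 19.1%, and ETS in 5.49% and 7.66%, the opposite order to that by Pbx4. Sites with TGATTGAC had a median Pbx4 fold enrichment of 10.9, against 5.65 without it, and a median HoxC5 fold enrichment of 7.02 against 6.14. Sites with TGATTGAT had a median HoxC5 fold enrichment of 9.27 against 6.14, and a Pbx4 median of 7.12 against 5.65.

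Centred on the Pbx4 summit instead, the Meis word was in 12.1% of the windows and TGATTGAC in 1.67%, both above their shares at the HoxC5 summit, and AP-1 in 9.85%. In the lowest quintile by Pbx4 fold enrichment 8.34% of the Pbx4 summit windows held the Meis word and 0.402% held TGATTGAC, and in the highest quintile 18.3% and 4.53%. Of the 100 sites of highest Pbx4 enrichment, 32 held the Meis word, 15 AP-1, 13 NF-Y and 11 TGATTGAC. The Meis word was under the Pbx4 summit of PKNOX1, MYL11, ACOT8, HIBADH and ACTR3C, 5 of the 9 Pbx4 peaks behind the leading 10 sites.

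Set beside the 38905 gained HoxC5 peaks with Pbx4 away from promoters, the promoter sites held more GC box, ETS and CRE words and fewer AP-1 words. Of the 21 words, 10 (47.6%) were more frequent at the promoter sites and 9 (42.9%) less. The GC box was in 20.1% against 2.35% (difference 17.7 points, 16.6 to 18.9), ETS in 5.86% against 0.707% and the CRE in 1.09% against 0.147%. AP-1 was in 10.2% against 28.8%, a difference of -18.6 points (-19.5 to -17.6), and TAATGA in 5.02% against 10.2%. The TATA box TATAAA was also less frequent at the promoter sites, at 2.78% against 5.13% (Fisher's exact test, adjusted p = 2.27e-14). The composite words split. TGATTGAC was more frequent at promoters, at 0.624% against 0.260% (Fisher's exact test, adjusted p = 0.000117), TGATTAAT less, at 0.544% against 1.05%, and TGATTGAT did not pass, at 0.826% against 0.897% with an interval of the difference of -0.309 to 0.234 points. The median GC content of these classes differed (55.4% and 45.5%), and this comparison was not repeated within GC classes. At the 220 promoter peaks with an endogenous HoxC5 peak and Pbx4, 1 word was less frequent than at the gained sites and 1 more (4.76% of those tested in each direction). TEAD's GGAATG was in 7.71% of the gained sites and 2.27% of these (Fisher's exact test, adjusted p = 0.0205), and the E-box CACGTG, bound by MYC and USF, in 3.10% and 7.27% (Fisher's exact test, adjusted p = 0.0281). AP-1, at 10.2% and 8.18%, did not pass, with an interval of the difference of -2.44 to 5.08 points.

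The sites fell at the promoters of 4436 of 19748 protein-coding genes, 22.5%, and this share is the background for each gene list below. The genes with a gained promoter peak without Pbx4 numbered 7489 (37.9%), and 1719 genes had both kinds (38.8% of those with a shared site). Most had 1 site (3562 genes), 714 had 2, and 160 had 3 or more. SEPTIN9 and TGIF1 had 7 each, and MEF2C, NEDD4L and RERE 6 each, all genes with many alternative starts, such as 28 at SEPTIN9 and 20 at TGIF1. The share moved with the number of annotated starts. It was 11.9% of genes with 1 start, 20.1% with 2 to 3, 28.4% with 4 to 9 and 42.7% with 10 or more. The median number of starts is therefore given beside most lists far from 22.5%. The median over all genes was 3. The lists are described by counts with no test. A site counts for every gene with a start within 1 kb, and 545 sites lay that near to starts of 2 or more genes. The peak behind a gene's value below can thus be nearer to another gene's start, as at HOXC6, FOXA1, AURKA, RPL35A and H2AC14.

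Some TALE and HOX genes, relatives of the immunoprecipitated factors, had sites at their own promoters. Of 11 genes for TALE cofactors, 7 had a site (63.6%, 30.8 to 89.1%, with a median of 6 starts), among them PKNOX1, TGIF1, MEIS2 and PKNOX2. After PKNOX1, the Pbx4 fold enrichments were 17.0 at MEIS2, 15.5 at PKNOX2 and 14.7 at TGIF1, against a median of 5.67 over all sites. MEIS1 with 4.68 and PBX3 with 4.49 also had a site and lay below that median. MEIS3, PBX2, PBX4 and TGIF2 had none, and of these PBX2 had a gained HoxC5 peak without Pbx4. Pbx4 and Meis3 are the Pbx and Meis proteins that the paper found to interact with HoxC5. Of 39 HOX genes, 11 had a site (28.2%, with a median of 1 start), among them HOXA9 with a HoxC5 fold enrichment of 13.8, HOXA3 with 11.9 and HOXC6 with 9.22. HOXC5 itself was not among them. It had an overexpressed HoxC5 peak at chr12:54426889-54427499, 177 bp downstream of its start with a fold enrichment of 4.44, and a Pbx4 peak at chr12:54426607-54426790 that ended short of it. PBX4 had neither within 1 kb.

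The leucine zipper genes listed under the AP-1 family and the ATF and CREB family gave 5 of 13 and 6 of 10. In the AP-1 family FOSL2, MAFF, JUN, FOSB and JUNB had a site (38.5%, median of 3 starts), with HoxC5 fold enrichments from 6.07 at JUNB to 8.63 at FOSL2. ATF3, BATF, BATF3, FOS, FOSL1, JUND, MAFG and MAFK had none. In the ATF and CREB family ATF6, CREBZF, CREB1, ATF2, CREB3 and CREM had a site (26.2 to 87.8%, median of 7 starts), led by ATF6, a sensor of endoplasmic reticulum stress, with 13.8. The other 4, ATF1, ATF4, ATF5 and ATF7, each had a gained HoxC5 promoter peak without Pbx4. The interval of the AP-1 list, 13.9 to 68.4%, includes 22.5%. That of the ATF and CREB list includes the 28.4% of all genes with 4 to 9 starts.

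Chromatin and signalling lists had shares from 35.7% to 52.9%, with wide intervals. Class I HDACs and their corepressors had a site at 9 of 17 genes (52.9%, 27.8 to 77.0%, median of 8 starts), among them HDAC8 with a HoxC5 fold enrichment of 13.5, RCOR1 with 13.4 and KDM1A with 6.72. In the TGF-beta pathway 10 of 25 genes had a site (21.1 to 61.3%, median of 4 starts), led by LTBP1 with 20.6 and INHBA, an activin subunit, with 20.4, followed by the inhibitory SMAD6 with 11.1 and the receptor TGFBR2 with 9.81. Core histone genes had a site at 29 of 68 (42.6%, 30.7 to 55.2%, median of 1 start), led by H2AC8 with 11.8, H3C6 with 10.1, H1-2 with 9.79 and H2AC14 with 9.66. Near-identical histone copies share reads, so which copy a peak belongs to is uncertain. Histone genes also lie close together, and 1 peak can count for several of them, as at H2AC14 and its neighbour. The count is thus of genes and not of separate peaks, and its interval, which treats the genes as independent, is too narrow. Mediator, which links factors to RNA polymerase II, had 10 of 28 (18.6 to 55.9%), with MED20 at 10.6 and MED18 at 10.4. Genes tied to the epithelial-mesenchymal transition, both regulators and structural proteins, had 7 of 18 (17.3 to 64.3%), with CLDN4 at 8.48 and ZEB1 at 8.46. The intervals of the TGF-beta, Mediator and transition lists include 22.5%. That of the HDAC list does not, but it includes the 28.4% found over all genes with 4 to 9 starts.

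Genes with a gained peak without Pbx4 outnumbered those with a shared site over all genes (37.9% and 22.5%), and so they did in most lists of widely expressed genes. Of 84 cytosolic ribosomal protein genes, 19 (22.6%) had a shared site and 65 (77.4%) a gained peak without Pbx4. Those with a shared site were led by RPL22 with a HoxC5 fold enrichment of 18.3, RPS7 with 14.6 and RPL35A with 12.3. For mitochondrial ribosomal proteins the counts were 26 and 52 of 78, led by MRPL18 with 19.8, and for subunits of respiratory complex I 12 and 26 of 38, led by NDUFC2 with 10.5. Proteasome genes had a shared site at 17 of 39 (43.6%, 27.8 to 60.4%, median of 4 starts), led by PSMB4 with 14.8 and PSMC2 with 12.7. That interval includes the 28.4% of all genes with 4 to 9 starts. Cell division, repair and splicing lists lay between 19.2% and 31.0%: replication with 9 of 29, led by POLA1 with 13.2, mitosis with 7 of 28, led by AURKA with 11.4, DNA repair with 7 of 28, and splicing with 5 of 26, led by SF3A3 with 18.0. Of 508 ZNF genes 133 had a shared site (26.2%), led by ZNF587B with 19.3.

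Some classes of tissue-restricted genes had few sites. Olfactory receptors had a shared site at 2 of 390 genes (0.513%, 0.0622 to 1.84%), OR2L3 and OR7E24, and keratin-associated proteins at 6 of 94 (6.38%, 2.38 to 13.4%). Both classes have a median of 1 start, and of all genes with 1 start 11.9% had a site. Chemokines and interleukins had a site at 11 of 73 (15.1%, median of 2 starts), with an interval of 7.77 to 25.4% that includes 22.5%. Of these, IL34, IL18, IL6 and IL1A had HoxC5 fold enrichments of 6.81 to 8.48. Among the keratin-associated proteins KRTAP4-6 had a Pbx4 fold enrichment of 25.5. Luminal prostate genes were not among the classes with few sites. They had a site at 5 of 17 (29.4%, median of 3 starts), with an interval of 10.3 to 56.0% that includes 22.5%. Among them were NDRG1 with 10.4, FOXA1 with 9.81, HOXB13 with 8.53 and ACP3 with 4.91.

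**Figure D3:**
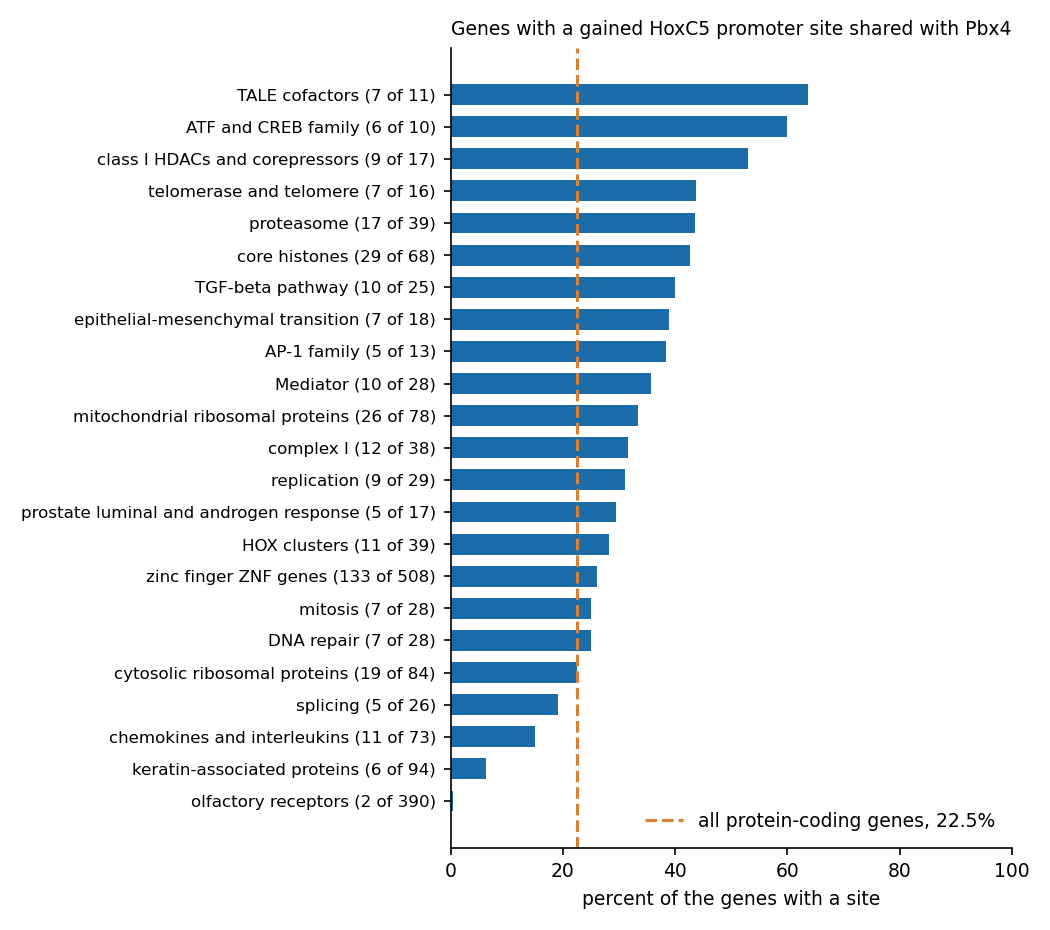
Percent of the genes of each list (x axis) with a gained HoxC5 promoter site shared with Pbx4, as bars from 0 with the count in the label, and the share over all protein-coding genes as a dashed line at 22.5%. TALE cofactors stand highest at 63.6% and olfactory receptors lowest at 0.513%, and the lists are described by counts with no test.

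Telomerase is the subject of the study, and its gene had no site. The nearest overexpressed HoxC5 peak to a TERT start lay at -21371 bp, upstream, in chr5:1316363-1316671 with a fold enrichment of 3.57, and overlapped a Pbx4 peak of fold enrichment 6.04 and an endogenous HoxC5 peak of replicate 1. Among 16 genes for telomerase and telomere proteins 7 had a site (43.8%, 19.8 to 70.1%, median of 5.5 starts). That interval includes the 22.5% of all genes and the 28.4% of all genes with 4 to 9 starts. NOP10, a protein of the telomerase ribonucleoprotein, had a HoxC5 fold enrichment of 8.59, WRAP53, which carries telomerase to Cajal bodies, 8.44, and the shelterin proteins POT1 and TERF1 6.09 and 6.08. The Pbx4 fold enrichments of these 4 ran from 2.46 to 3.14. The other members, STN1, TINF2 and TEN1, had 3.55, 5.54 and 6.79, so the list spans the median of all sites.

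The edges of the rule were gradual. The shared site at TMTC2 lay 1000 bp from the start, while the shared gained peaks at SYNE2 and PTPDC1, each at 1002 bp, lay just outside. NOLC1, KIAA2026 and PRRC2B entered with an overlap of 1 bp, and the gained promoter peaks of CKAP2 and CDH2 touched a Pbx4 peak without overlapping it. Of the 8391 gained promoter peaks without Pbx4, 241 (2.87%) lay within 100 bp of a Pbx4 peak and 1586 (18.9%) within 500 bp.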

How the data were processed

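ChIP-Seq peak lists of 4 libraries from PC-3 cells were used; the 4 input libraries have no list here. The authors mapped single-end reads to hg19 with BWA-MEM, filtered on mapping quality, dropped duplicate reads by SAMtools, and each library got its own MACS2 call. The control used for each call and the MACS2 version are not given in the sources used here. The deposited files give per peak an interval, a summit, a score derived from q, a fold enrichment (a ratio to local background), a −log10 p-value and a −log10 q-value, all as the authors' caller wrote them; score and p-value were not used. Depth per library is unknown, since the lists hold no read counts.

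TSSs came from protein-coding transcripts of GENCODE release 44 lifted to GRCh37, and sequence from the GRCh37 primary assembly, whose coordinates match hg19. Windows reached 50 bp either side of a summit. The 21 words were tested by two-sided exact McNemar tests (summit against the window 1 kb to the right) and two-sided Fisher's exact tests (between classes of peak), each adjusted for the number of words by Benjamini-Hochberg at a threshold of 0.05. Shares have 95% Clopper-Pearson and differences Newcombe intervals. Gene lists are described by counts. Analyses used Python 3.11.15, pandas 2.3.3, scipy 1.17.1, statsmodels 0.14.6 and pysam 0.24.0, and the word tests were tested on simulated data. The sites, words and lists were chosen with earlier results of these data known. Named genes were the 10 sites highest in either fold, the 3 highest per called word, up to 4 per gene list, the genes without a site in lists under 15 genes, sites next to each limit, and TERT, HOXC5 and PBX4; only some of these are printed, and a few items are not reported here. SEPTIN9, MEF2C, NEDD4L and RERE, and MEIS1, PBX3, PKNOX2, STN1, TINF2, TEN1, JUNB, CREB3 and CREM, fall outside this rule and were named after their values were seen. Alternatives varied fold, q, overlap, window, annotation and the endogenous lists.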

Additional observations from a re-analysis of the deposited data

How the results depend on the processing

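The number of sites (4965) ranged from 3566 to 6488 under the other limits on HoxC5 height, overlap, promoter window and annotation, and fell to 3005 with a Pbx4 fold enrichment of at least 5 and to 2100 with the Pbx4 list cut to the length of the HoxC5 list. The share of gained promoter peaks with Pbx4 (37.2%) was 41.4% at a HoxC5 fold enrichment of at least 5, 40.5% at a HoxC5 q of at most 1e-5, 22.5% at a Pbx4 fold enrichment of at least 5, 30.8% with the HoxC5 summit inside the Pbx4 peak, 27.5% with an overlap over at least 50% of the HoxC5 peak, 35.1% within 500 bp and 41.1% within 2 kb of a TSS, 35.7% with basic transcripts only and 15.7% with the shortened Pbx4 list. The share of genes with a site (22.5%) was 17.2%, 13.8%, 19.0% and 18.8% under the HoxC5 fold, Pbx4 fold, summit and 500 bp alternatives. Leaving out an endogenous library in turn gave 4969 to 5163 sites, 37.2 to 37.4% of gained promoter peaks and 22.5 to 23.2% of genes. These moves follow from peaks entering or leaving the lists.

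Counts of called words stayed within 1.5 times the reported 18, 18 and 19 under each alternative of height, overlap, window, flank and endogenous list, and the difference in divergent promoters kept its sign and its call in each, at -2.95 to -6.18 points. In 3 comparisons added after seeing the data, the words that differed from peaks without Pbx4 numbered 5 at 50 to 60% GC, 15 within 100 bp of the TSS and 17 at a HoxC5 fold enrichment of 5 to 8. At 50 to 60% GC the difference in the GC box was 0.628 points, reversed in sign. For 1 site per gene, both classes were reduced to the peak of highest enrichment. No paired analysis was possible because each overexpressed protein has 1 library. The missing read counts limit all of this: a peak under the calling limit cannot be told from no binding.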
